A study of Mus musculus with 25 samples.

Results

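The 8 genes Mbp, Prx, Mag, Pmp2, Cnp, Mal, Ncmap and Drp2, which encode structural proteins of the peripheral myelin sheath, were followed through the RNA of the mouse sciatic nerve. They were chosen by name among the 56956 genes counted. All 8 passed the filter on low counts, Pmp2 through only some of the groups. Each of the 25 libraries was made from sciatic nerves of 4 to 5 males and females, with 1 library for each of 5 groups at ages of 3, 5, 7, 9 or 12 weeks. WT-C3 mice were C57BL/6J without the transgene and WT-C22 mice were FVB/NRJ without it. C3 mice carried 5 extra copies of human PMP22 on the C57BL/6J background (B6.Cg-Tg(PMP22)C3Fbas/J), and C22 mice carried 10 on FVB/NRJ (Tg(PMP22)C22Clh), in both cases on a yeast artificial chromosome with the human locus. C3 arose as a spontaneous partial revertant of C22, and both lines were bred heterozygous. C3 c-JunP0Cre mice had the C3 transgene and in addition lacked c-Jun in Schwann cells by Cre recombination, and no group with the c-Jun knockout alone is among the libraries. Their genotype label (C3-PMP22 c-JunP0Cre) names neither strain nor copy number. In comparisons with this group, loss of c-Jun, the Cre and any difference of strain cannot be told apart. The mice of all groups were untreated, and the labels name a single batch. These models stand for Charcot-Marie-Tooth disease type 1A, an inherited demyelinating neuropathy, which the labels write as CMT1A. Copy number and strain differ together between C3 and C22 and cannot be told apart.

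Myelin is made by Schwann cells, which wrap an axon in many turns of membrane. In compact myelin the cytoplasm is squeezed out and the inner faces of the membrane are held together by myelin basic protein, the product of Mbp, while Pmp2 encodes a fatty acid binding protein of the same compartment. Non-compact myelin keeps its cytoplasm: there Mag encodes an adhesion protein of the membrane that faces the axon and Cnp encodes a cyclic nucleotide phosphodiesterase that binds the cytoskeleton. Periaxin, from Prx, and dystrophin-related protein 2, from Drp2, form a complex with dystroglycan at the outermost Schwann cell membrane, where it meets the basal lamina. Mal encodes a small proteolipid of lipid rafts that takes part in sorting membrane to the sheath, and Ncmap encodes a membrane protein of peripheral non-compact myelin.

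The bases just upstream of the start of transcription are given for Mal, Ncmap and Prx, since these 3 genes showed 3 patterns of calls (Mal lower in C3 and C22, Ncmap higher in C3, Prx lower in C22). The letters searched, on both strands, were GTGGGNG (the core bound by EGR factors), ACAAAG and AACAAT (cores bound by SOX factors) and GGAATG (the core bound by TEAD factors), and capitals mark the matches. The sequences are from RefSeq (GRCm38.p6), were found again by exact match in GRCm39 and hold no annotated exon. Those of Mal and Ncmap end where the canonical transcript starts, and that of Prx ends at its start after 8 exonic bases were removed. The stretches of Prx and Ncmap lie in introns of longer transcripts of the same genes. Each is written 5′ to 3′ on the strand of its gene, for Prx at chr7:27198499-27198740, plus strand, for Mal at chr2:127498616-127498865, minus strand and for Ncmap at chr4:135112984-135113233, minus strand.
Prx: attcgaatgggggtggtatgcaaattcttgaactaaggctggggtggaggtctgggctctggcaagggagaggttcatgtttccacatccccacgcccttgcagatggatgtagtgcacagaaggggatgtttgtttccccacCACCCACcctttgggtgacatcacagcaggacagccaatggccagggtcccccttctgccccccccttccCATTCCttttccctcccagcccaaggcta
Mal: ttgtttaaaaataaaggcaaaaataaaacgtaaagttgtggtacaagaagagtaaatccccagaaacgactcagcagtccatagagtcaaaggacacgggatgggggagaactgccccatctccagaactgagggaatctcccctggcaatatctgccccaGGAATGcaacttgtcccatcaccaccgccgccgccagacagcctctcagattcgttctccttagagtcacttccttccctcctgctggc
Ncmap: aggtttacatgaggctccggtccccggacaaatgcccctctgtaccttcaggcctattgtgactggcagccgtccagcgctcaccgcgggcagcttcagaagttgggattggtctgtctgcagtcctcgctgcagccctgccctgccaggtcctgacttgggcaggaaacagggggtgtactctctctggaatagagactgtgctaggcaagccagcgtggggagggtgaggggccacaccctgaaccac
The Prx stretch held the complement of an EGR core and of a TEAD core, the Mal stretch held a TEAD core and the Ncmap stretch shown held none of the 4. RefSeq has a second promoter of Ncmap, 12555 bases further upstream at chr4:135125539-135125788, which is not shown and held an EGR core 175 to 169 bases before its start. The stretches of Mag (3 in RefSeq) and Cnp are not shown and also held matches, to ACAAAG and the TEAD core in both genes and to the EGR core in Mag. The EGR core was present in 28.1% of the 32536 different promoter stretches of 250 bases in RefSeq, ACAAAG in 16.5%, AACAAT in 9.35% and the TEAD core in 12.6%. RefSeq promoters were matched for 5 of the 8 genes, and those of Mbp, Pmp2 and Drp2 were not used here.

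Fragments counted on genes ran from 2140142 to 49072746 per library (median 24663235). The shallowest library was that of C3 at 9 weeks. Levels are CPM (counts scaled to equal library size) scaled by the trimmed mean of M-values (TMM) over the 25 libraries, and fold changes are log2 values of edgeR's quasi-likelihood test with p-values adjusted by Benjamini-Hochberg over 13993 genes. No age of a group had more than 1 pool, so the 5 ages served as replicates and each error includes the change with age. Human PMP22, in CPM without TMM scaling, lay between 10650 and 13890 in C3 (median 13550) and between 10660 and 14270 in C22 (median 12890). These ranges overlapped although the copy number differs. In the same unit it lay between 8213 and 14860 in C3 c-JunP0Cre and at most at 5.87 in the controls. Jun lay between 26.3 and 31.7 CPM in C3 c-JunP0Cre and between 93.8 and 125 in C3. The summed CPM of 6 skeletal muscle markers passed 1000 in 5 libraries (C3 at 7 and 12 weeks, WT-C3 at 5, C22 at 3 and WT-C22 at 5). The summed level of these markers ran from 13.1 to 3291 CPM in WT-C3, 139 to 5114 in C3, 5.56 to 841 in C3 c-JunP0Cre, 15.0 to 8414 in WT-C22 and 49.4 to 2111 in C22, and its part in the results was not tested beyond leaving those libraries out.

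In whole nerve, fewer Schwann cells and less RNA per Schwann cell cannot be told apart. Of 4 Schwann cell markers, Sox10 rose by 0.59 ± 0.10 (SE; adjusted p = 0.00159) on the log2 scale in C3 and by 0.51 ± 0.094 (SE; adjusted p = 0.00123) in C22, and Erbb3 rose in both models, at 0.71 (adjusted p = 0.000126) and 1.29 (adjusted p = 1.17e-06). S100b fell in C22, at -0.995 (adjusted p = 5.59e-05), and had -0.27 (adjusted p = 0.162) in C3, and Cdh19 did not pass the test in either model. Mbp, Mag, Cnp and Mal are also expressed by oligodendrocytes of the central nervous system, whose defining markers Olig2 (0 counts in every library), Mog (at most 2 counts) and Opalin (at most 7 counts) were at or near 0. The other 2 of the 5 oligodendrocyte markers, Mobp and Hapln2, were both lower in C22, and the 5 together summed to 5.72 to 14.6 CPM in WT-C3, 3.75 to 12.7 in C3, 12.0 to 18.1 in C3 c-JunP0Cre, 3.20 to 11.1 in WT-C22 and 0.874 to 1.56 in C22. Markers of the cells around the fibres were lower too: 3 of 3 perineurial genes tested fell in both models, with summed levels of 504 to 731 CPM in WT-C3, 362 to 441 in C3, 437 to 649 in WT-C22 and 276 to 354 in C22. Of all genes tested, 11.4% were lower and 12.5% higher in C3, and 20.5% were lower in C22. Of 7 endothelial and pericyte genes, 5 fell in C22 (Cdh5, Kdr, Emcn, Rgs5 and Pdgfrb), at summed levels of 874 to 1101 CPM in WT-C22 and 597 to 844 in C22, and 1 fell and 1 rose in C3. The part of these cells in the results was not tested.

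In WT-C3 the TMM-scaled CPM of the 8 genes summed to 3.36% ± 0.484 of the CPM scale (SD, n = 5), and in WT-C22 to 3.27% ± 0.732. This sum was in C3 2.86% ± 0.371, in C3 c-JunP0Cre 2.60% ± 0.545 and in C22 1.76% ± 0.226. It is not the exact share of a library's counts, since the TMM factors differ between libraries (at 3 weeks 0.913 in WT-C22 and 1.06 in C22). The ranges of C22 (up to 2.01%) and WT-C22 (from 2.47%) did not overlap, whereas those of C3 and WT-C3 did. Divided by the length of the canonical transcript, the level in WT-C3 was 8526 ± 1403 CPM per kb for Mbp, 1454 ± 175 for Prx and 1003 ± 196 for Mal. It was 642 ± 103 for Cnp, 409.8 ± 45.0 for Drp2, 194 ± 42.5 for Mag, 156 ± 23.3 for Ncmap and 1.46 ± 0.970 for Pmp2 (SD, n = 5). Neighbours in that order lay further apart than the sum of their SDs, except Mag and Ncmap. WT-C22 had the same order. In C22, Drp2 stood seventh, at 67.0 ± 20.5 CPM per kb, after Mag at 287 ± 51.7 and Ncmap at 139 ± 15.7. In C3, C3 c-JunP0Cre and C22, Cnp stood before Mal, at 710.2 ± 106 against 649 ± 114 CPM per kb in C3 and 725 ± 148 against 447 ± 65.7 in C22, and in C3 the pair differed by less than the sum of their SDs. This order turned with the choice of length: divided by all exonic bases of the gene, Mal stood before Cnp in each of the 5 groups, at 639.6 ± 112 against 413 ± 61.8 CPM per kb in C3 and 440.1 ± 64.7 against 422 ± 85.9 in C22, and Ncmap stood before Mag except in C22.

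**Figure D1:**
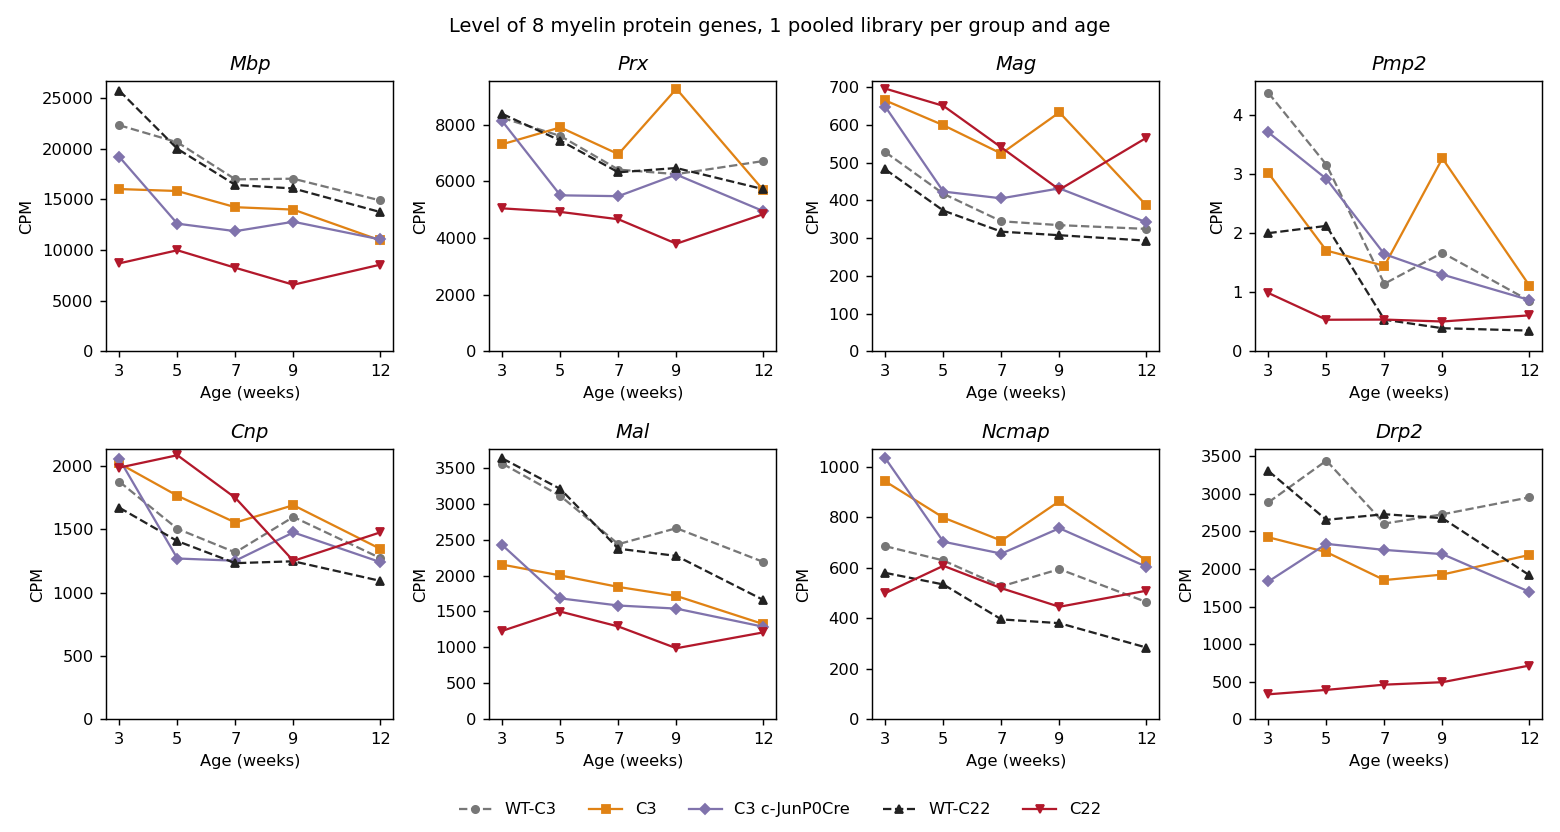
CPM of each gene (vertical axis, from 0) against age in weeks, 1 point per library, with dashed lines for the control groups and full lines for C3, C3 c-JunP0Cre and C22. Drp2 of C22 lies below all other libraries at each age, and Mbp of C22 stays between 6574 and 9976 CPM while WT-C22 falls from 25728 to 13746.

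In C3, 2 of the 8 genes were higher than in WT-C3 (Mag and Ncmap), where 12.5% of all genes tested were higher. Another 2 were lower (Mal and Drp2), where 11.4% of all genes were lower, and Mbp, Prx, Pmp2 and Cnp did not pass the test. In C22, 4 genes were lower than in WT-C22 (Drp2, Mbp, Mal and Prx), against 20.5% of all genes, and Mag was higher, against 21.9%. The median log2 fold change of the 8 was -0.075 in C3 and -0.59 in C22, beside 0.0011 and 0.0046 over all genes. C3 and WT-C3 did not overlap for 2 of the 8 genes, as for 17.5% of all genes, and C22 and WT-C22 for 4, as for 30.5%. The change differed between the models for 3 of the 8 (Drp2, Mbp and Prx, each lower in C22), where 7.31% of all genes had a lower change in C22, and a higher change was called for 0 of 8, against 4.75% of all genes.

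**Figure D2:**
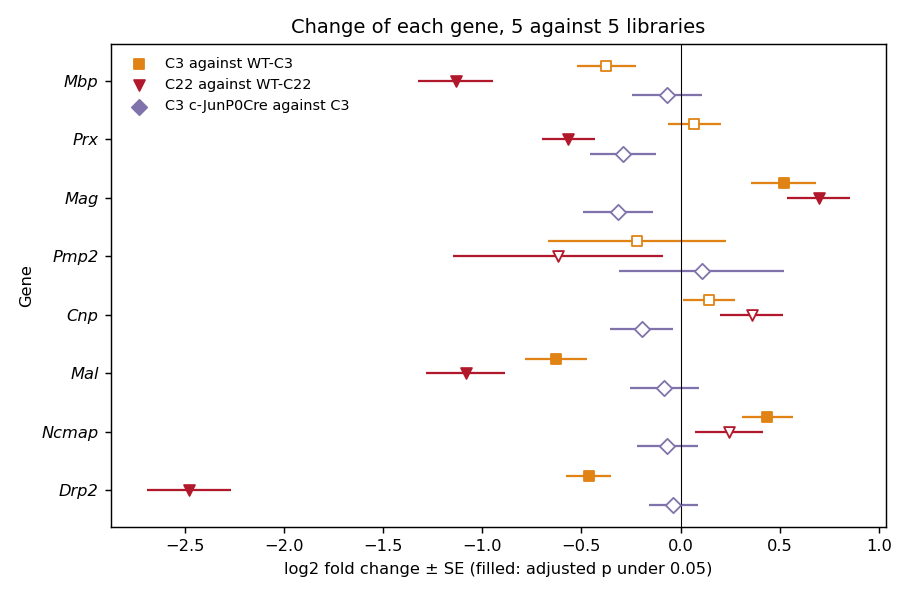
log2 fold change with its SE for each gene in C3 against WT-C3 (squares), C22 against WT-C22 (triangles) and C3 c-JunP0Cre against C3 (diamonds), with filled symbols for an adjusted p under 0.05. Mag lies right of 0 in both models, Mal and Drp2 lie left of 0 in both, and all diamonds are open.

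Drp2 (chrX:133304876-133357574, plus strand, GRCm39), which encodes the dystroglycan partner of periaxin, fell most among the 8 genes in C22. From 3 to 12 weeks it stood at 3306, 2656, 2730.0, 2678 and 1918 CPM in WT-C22. In C22 the values were 332, 390.3, 459.9, 493 and 714 CPM. All C22 libraries lay below all WT-C22 libraries. Means were 2657 ± 493 CPM (SD, n = 5) and 478 ± 146 CPM (SD, n = 5), and the log2 fold change was -2.48 ± 0.21 (SE) with an adjusted p of 4.62e-06, that is 5.58-fold lower. In C57BL/6J the same gene stood at 2888, 3444, 2606, 2729 and 2955 CPM in WT-C3 and, in C3, at 2423, 2226, 1853, 1927 and 2188 CPM. The groups did not overlap there either, at means of 2924 ± 321 CPM (SD, n = 5) and 2123 ± 233 CPM (SD, n = 5), and the log2 fold change was -0.46 ± 0.11 (SE) with an adjusted p of 0.0120. The change in C22 minus that in C3 was -2.04 ± 0.24 (SE) on the log2 scale (adjusted p = 8.69e-06). Without the 3 libraries of C3 and WT-C3 that held much muscle RNA, the value in C3 was -0.35 (adjusted p = 0.113), which no longer passed the test, while that in C22 was -2.38 (adjusted p = 5.92e-05).

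Prx (chr7:27196813-27219639, plus strand, GRCm39), the gene of periaxin itself, was lower in C22 and did not pass the test in C3. WT-C22 had 8384, 7441, 6323, 6473 and 5726 CPM and C22 had 5049, 4923, 4664, 3799.7 and 4844 CPM. Each C22 library was below each control library, at means of 6869 ± 1047 CPM (SD, n = 5) and 4656 ± 499 CPM (SD, n = 5). This was a log2 fold change of -0.57 ± 0.14 (SE), with an adjusted p of 0.00578. In WT-C3 the levels were 8244, 7607, 6417, 6258 and 6720.5 CPM and in C3 they were 7314, 7909, 6963, 9273 and 5691 CPM. The highest of these came from the shallow library of 9 weeks, and the groups overlapped. The log2 fold change in C3 was 0.070 ± 0.14 (SE) with an adjusted p of 0.746 and an interval of -0.24 to 0.38 (95%, 8 residual degrees of freedom). The difference between the models was -0.66 ± 0.19 (SE) (adjusted p = 0.0259), and it lost the call without the WT-C22 library of 3 weeks, at -0.55 (adjusted p = 0.0662), or that of 5 weeks, at -0.61 (adjusted p = 0.0624), and with no filter on low counts, at -0.62 (adjusted p = 0.0536).

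The 2 partners of the outer membrane complex stood in different ratios in C22 and its control. Counted within a library, there were 33.5 to 43.2 Drp2 fragments per 100 Prx fragments in WT-C22 and 6.57 to 14.7 in C22. In C22 this ratio was 6.57 at 3 weeks and 14.7 at 12 weeks, the lowest and the highest of that group. It was 35.0 to 45.3 in WT-C3 and 20.8 to 38.4 in C3, which overlap. These ratios were formed after the values were seen and carry no test.

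Of 16 other genes for dystroglycan, its associated proteins and the laminins and integrins of the same membrane, 7 were lower and 1 was higher in C22, and 1 was lower and 1 higher in C3. The median of their log2 fold changes was -0.17 in C22 and 0.052 in C3, beside 0.0046 and 0.0011 over all genes. Of all genes, 20.5% were lower and 21.9% higher in C22, and 11.4% and 12.5% in C3. Dag1, the gene of dystroglycan and the one with the highest level of the list, had -0.057 (adjusted p = 0.702) in C22 and 0.28 (adjusted p = 0.0784) in C3, so that it did not pass the test in either model. Itgb4 and Itga6, which encode the chains of a laminin receptor integrin, were lower in C22 at -0.69 (adjusted p = 0.00120) and -0.30 (adjusted p = 0.0362). Utrn, the gene of utrophin, had 0.031 (adjusted p = 0.795) in C22. Lamc1, the gene of a laminin chain, had -0.14 (adjusted p = 0.399). Ezr, the gene of the cytoskeletal linker ezrin, rose in both models, by 1.04 (adjusted p = 0.000101) in C3 and 1.19 (adjusted p = 1.31e-06) in C22. Sgce, the gene of ε-sarcoglycan, was lower in both, at -0.50 (adjusted p = 0.000944) and -0.77 (adjusted p = 7.26e-07). Lower in C22 were also Lamb2 at -0.41 (adjusted p = 0.0178), Sntb1 at -0.42 (adjusted p = 0.00104) and Sgcd at -1.22 (adjusted p = 0.000151).

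Mbp, the gene of myelin basic protein, was lower in C22. WT-C22 had 25728, 19994, 16423, 16078 and 13746 CPM from 3 to 12 weeks, and C22 had 8686, 9976, 8245, 6574 and 8556 CPM. No library of C22 reached the lowest of the controls, at means of 18394 ± 4669 CPM (SD, n = 5) and 8407 ± 1219 CPM (SD, n = 5). Its log2 fold change of -1.13 ± 0.19 (SE) (adjusted p = 0.000624) is a ratio of 0.456. In C57BL/6J the levels were 22319, 20637, 16977, 17040.1 and 14891 CPM in WT-C3 and 16019, 15827, 14227, 13992 and 10952 CPM in C3. C3 was lower at 5 of 5 ages, yet the groups overlapped, and the log2 fold change of -0.38 ± 0.15 (SE) did not pass the test (adjusted p = 0.0864, with an interval of -0.72 to -0.033). It passed with DESeq2, at -0.38 (adjusted p = 0.0221), and with age as a block, at -0.37 (adjusted p = 0.00648). The change in C22 minus that in C3 was -0.78 ± 0.24 (SE) (adjusted p = 0.0352). That call was lost, with adjusted p from 0.0540 to 0.0811, when 1 of 11 libraries was left out: those of C3 at 3, 5 and 7 weeks, of WT-C3 at 7, 9 and 12 weeks, of C22 at 3, 7 and 9 weeks and of WT-C22 at 3 and 5 weeks. It was also lost without the libraries with much muscle RNA, at -0.91 (adjusted p = 0.0880), with no filter on low counts, at -0.75 (adjusted p = 0.0644), and with the filter of filterByExpr, at -0.76 (adjusted p = 0.0575).

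Mal (chr2:127475142-127498615, minus strand, GRCm39), the raft proteolipid whose upstream stretch is shown above, was lower in both models. It stood at 3629.6, 3204, 2373, 2273 and 1659 CPM in WT-C22 and at 1230.0, 1498, 1290.2, 988 and 1208 CPM in C22. The groups did not overlap, and means were 2628 ± 785 CPM (SD, n = 5) and 1243 ± 183 CPM (SD, n = 5). Mal thus changed by -1.08 ± 0.20 (SE) on the log2 scale in C22, with an adjusted p of 0.00110. WT-C3 had 3557, 3107, 2436, 2659 and 2188 CPM and C3 had 2151, 2001, 1841, 1716 and 1323 CPM. Again every library of the model lay below every control library. The log2 fold change in C3 was -0.63 ± 0.16 (SE) (adjusted p = 0.0135), and it was -0.47 (adjusted p = 0.110) without the libraries with much muscle RNA, past the threshold no longer. The change in C22 minus that in C3, -0.48 ± 0.26 (SE), did not pass the test (adjusted p = 0.281), and its interval ran from -1.03 to 0.079. Per 100 Mbp fragments of the same library there were 12.1 to 16.0 Mal fragments in WT-C22, 14.1 to 15.6 in C22, 14.3 to 15.9 in WT-C3 and 12.1 to 13.4 in C3.

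Mag (chr7:30598464-30614474, minus strand, GRCm39), whose product faces the axon, was higher in both models. WT-C3 had 527, 417, 344, 334 and 324 CPM and C3 had 664, 599, 524, 633 and 386 CPM. C3 was higher at 5 of 5 ages but the groups overlapped. Means were 389 ± 85.4 CPM (SD, n = 5) and 561 ± 111 CPM (SD, n = 5), and the log2 fold change was 0.52 ± 0.16 (SE) with an adjusted p of 0.0377. WT-C22 had 482, 373, 317, 307 and 293 CPM and C22 had 696, 650.0, 539.8, 428 and 566 CPM. There too the model was higher at 5 of 5 ages with an overlap of the groups. In C22 the log2 fold change was 0.70 ± 0.16 (SE) with an adjusted p of 0.00454. The change did not differ between the models past the threshold, at 0.15 ± 0.24 (SE) (adjusted p = 0.777, interval -0.36 to 0.67). The call in C3 was lost, with adjusted p from 0.0559 to 0.0914, when the C3 library of 3, 5, 7 or 9 weeks or the WT-C3 library of 5, 7, 9 or 12 weeks was left out. Without the libraries with much muscle RNA it was 0.73 (adjusted p = 0.0216).

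Ncmap (chr4:135094616-135125538, minus strand, GRCm39) was higher in C3 and did not pass the test in C22. The levels were 685, 629, 526, 594 and 464 CPM in WT-C3 and 941, 798, 707, 863 and 628 CPM in C3. C3 was higher at 5 of 5 ages, with log2 ratios between 0.34 and 0.54 and overlapping groups. On the log2 scale Ncmap changed by 0.44 ± 0.13 (SE) (adjusted p = 0.0285). This call was lost, with adjusted p from 0.0506 to 0.0684, without the C3 library of 3, 5 or 9 weeks or the WT-C3 library of 7, 9 or 12 weeks. In FVB/NRJ the levels were 579, 533, 395, 380.3 and 284 CPM in WT-C22 and 499, 607, 519, 445 and 509 CPM in C22. C22 was lower at 3 weeks and higher at the 4 later ages. The log2 fold change of 0.24 ± 0.17 (SE) missed the threshold (adjusted p = 0.279, interval -0.15 to 0.64). The change in C22 minus that in C3 was -0.22 ± 0.23 (SE) (adjusted p = 0.628, interval -0.70 to 0.26).

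Cnp (chr11:100465730-100482936, plus strand, GRCm39) was above its control at 5 of 5 ages in both models without passing the test in either. It had 1875, 1503, 1317, 1597 and 1272 CPM in WT-C3 and 2019, 1764, 1552, 1689 and 1344 CPM in C3. Cnp changed by 0.14 ± 0.13 (SE) on the log2 scale in C3 (adjusted p = 0.465). WT-C22 had 1669.7, 1406, 1232, 1247 and 1092 CPM and C22 had 1986, 2084, 1748, 1250.0 and 1475 CPM. In C22 the log2 fold change was 0.36 ± 0.16 (SE) (adjusted p = 0.0900, interval -0.0076 to 0.72), and it passed when counts were scaled by library size alone, at 0.53 (adjusted p = 0.00904), with age as a block, at 0.35 (adjusted p = 0.0290), and without the C22 library of 9 weeks, at 0.45 (adjusted p = 0.0259), or the WT-C22 library of 3 weeks, at 0.45 (adjusted p = 0.0328). Exons of Cnp overlap those of Dnajc7 on the opposite strand, which had 185 to 283 CPM. The library kit keeps strand, but the strand setting of the counting is not given in the sources used here.

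Pmp2 (chr3:10244786-10249724, minus strand, GRCm39) was counted at 0.350 to 4.38 CPM, or 7 to 101 fragments in a library, and its level is uncertain. The annotation holds a second gene, Gm37389, on the same strand, which shares 79.8% of the bases of the canonical Pmp2 transcript and had 0 counts in all libraries, and fragments on bases that 2 genes share may have been set aside as ambiguous. The values were 4.38, 3.16, 1.14, 1.67 and 0.855 CPM in WT-C3 and 3.02, 1.71, 1.45, 3.27 and 1.11 CPM in C3. In WT-C22 they were 2.00, 2.12, 0.535, 0.391 and 0.350 CPM and in C22 0.987, 0.534, 0.537, 0.504 and 0.609 CPM. Model and control overlapped in both strains. The log2 fold change was -0.22 ± 0.45 (SE) in C3 (adjusted p = 0.760) and -0.62 ± 0.53 (SE) in C22 (adjusted p = 0.370), with an interval of -1.84 to 0.60 in C22. Of 6 other genes of the fatty acid binding protein family, 2 passed the filter: Fabp4, best known from adipocytes, had -0.79 (adjusted p = 0.103) in C3 and -0.19 (adjusted p = 0.618) in C22, and Fabp5, of skin and other tissues, fell in both, at -0.68 (adjusted p = 0.00718) and -0.56 (adjusted p = 0.0296).

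In C22, Mag rose and Mbp fell in the same libraries, and their ratio shows this within each of them. There were 1.96 to 2.36 Mag fragments per 100 Mbp fragments in the WT-C3 libraries and 1.86 to 2.13 in the WT-C22 libraries. C3 had 3.53 to 4.52, C3 c-JunP0Cre had 3.09 to 3.42 and C22 had 6.51 to 8.01. Control, C3 and C22 libraries did not overlap in this ratio at any age, with means of 2.11 ± 0.162 (SD, n = 5) in WT-C3, 3.93 ± 0.401 (SD, n = 5) in C3 and 6.84 ± 0.655 (SD, n = 5) in C22. The libraries of the models and their controls did not overlap for Cnp either, at 6.49 to 7.94 fragments per 100 Mbp fragments in WT-C22 and 17.2 to 22.9 in C22, and at 7.28 to 9.37 in WT-C3 and 10.9 to 12.6 in C3. Such a ratio does not depend on how libraries are scaled. It was chosen after the values were seen and is given without a test.

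Counted against Sox10, whose protein marks the Schwann cell nucleus at all its stages, Mag did not set the groups apart. There were 78.5 to 130.2 Mag fragments per 100 Sox10 fragments in WT-C3 and 74.1 to 113 in C3. WT-C22 had 76.9 to 97.0 and C22 had 85.2 to 113. The ranges of all 5 groups overlapped, with C3 c-JunP0Cre at 69.1 to 126. Mbp, in contrast, had 3606 to 5183 fragments per 100 Sox10 fragments in WT-C22 and 1309 to 1649 in C22. In C57BL/6J its ratio was 3605 to 5509 in WT-C3 and 1831 to 2721 in C3, without overlap, although the level of Mbp did overlap there. Drp2 had 669 to 764 in WT-C3, 252 to 419.6 in C3, 503 to 711 in WT-C22 and 53.9 to 119 in C22. Sox10 itself rose in both models, and these ratios too are a description without a test.

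**Figure D3:**
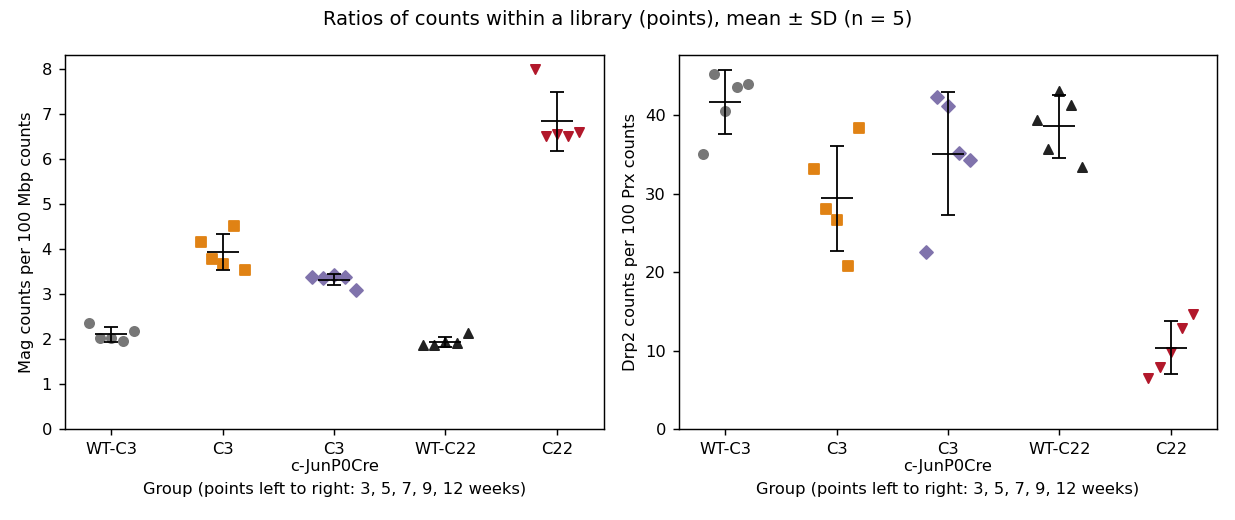
Fragments of Mag per 100 fragments of Mbp (left) and of Drp2 per 100 of Prx (right), 1 point per library ordered by age from left to right within a group, with the mean and SD (n = 5) in black. The lowest Mag ratio in C22, 6.51, is above every library of the other groups, and the highest Drp2 ratio in C22, 14.7, is below every library of the other groups.

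Of 18 other genes of the myelin sheath, 9 were lower and 3 higher in C22, and 6 were lower and 3 higher in C3. The median of their log2 fold changes was -0.28 in C22 and -0.15 in C3, beside 0.0046 and 0.0011 over all genes. The shares of all genes were 20.5% lower and 21.9% higher in C22, and 11.4% and 12.5% in C3. The mouse gene Pmp22 had -1.16 ± 0.16 (SE; adjusted p = 0.000548) in C3 and -2.42 ± 0.23 (SE; adjusted p = 9.42e-06) in C22, in libraries that also held fragments of its human counterpart. Ndrg1, a gene of inherited demyelinating neuropathy, had -0.16 (adjusted p = 0.251) in C3 and fell in C22, at -0.32 (adjusted p = 0.0269). Pals2, which encodes a scaffold protein, was higher in both, at 0.57 (adjusted p = 0.0131) and 1.72 (adjusted p = 3.55e-05), and Gal3st1, of sulfatide synthesis, was higher in C22 at 0.51 (adjusted p = 0.0441). In C3 the other genes that were higher were Gldn, of the node of Ranvier, at 0.55 (adjusted p = 0.0126), and Sh3tc2, another neuropathy gene, at 0.39 (adjusted p = 0.0477). Among the genes lower in C22, Ugt8a, which makes galactocerebroside, had -2.43 (adjusted p = 3.05e-05), Fa2h, which hydroxylates its fatty acid, had -1.28 (adjusted p = 0.000176), Cd9, of a tetraspanin, had -0.96 (adjusted p = 0.000339) and Cadm4, of an adhesion protein that faces the axon, had -0.98 (adjusted p = 8.95e-05).

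Of 10 genes for regulators of myelination, 6 were higher and 2 lower in C22, and 4 were higher and 1 lower in C3. Over all genes 21.9% were higher and 20.5% lower in C22, and 12.5% and 11.4% in C3. Among the regulators the highest levels belonged to Sox10, given above, Zeb2, Srebf2 and Tead1. Zeb2, a repressor needed for myelination, had 0.23 (adjusted p = 0.266) in C3 and 0.52 (adjusted p = 0.00106) in C22, and Tead1, a partner of the Hippo effectors, had 0.33 (adjusted p = 0.0943) and 0.70 (adjusted p = 0.000563). Srebf2, which drives cholesterol synthesis, had -0.084 (adjusted p = 0.513) in C3 and was lower in C22 at -0.51 (adjusted p = 0.000391). Nab1 was lower in both models, at -0.56 (adjusted p = 0.000644) and -1.05 (adjusted p = 1.97e-06), and Nab2, which like Nab1 encodes a cofactor of EGR2, was higher in both, at 0.57 (adjusted p = 0.000444) and 0.92 (adjusted p = 2.44e-05). Egr2, which encodes the factor that switches on myelin genes, did not pass the test, at 0.41 (adjusted p = 0.0872) in C3 and 0.24 (adjusted p = 0.137) in C22. Pou3f1, a gene of promyelinating Schwann cells, rose from 37.3 ± 10.0 CPM to 163 ± 37.9 CPM in C3 and from 36.1 ± 8.68 CPM to 450.1 ± 71.2 CPM in C22 (SD, n = 5), with log2 fold changes of 2.11 (adjusted p = 3.80e-05) and 3.64 (adjusted p = 5.75e-08). Pou3f2, which encodes a related factor, was higher in both, at 1.20 (adjusted p = 0.000189) and 1.72 (adjusted p = 1.36e-06).

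The knockout of c-Jun on top of the C3 transgene was compared with C3 alone to ask whether c-Jun, a factor that injured and immature Schwann cells switch on, alters these genes. In edgeR 0 of the 8 genes were called, where 0.55% of all genes were. DESeq2 also called 0 of 8, and 250 of all 13993 genes. At an unadjusted p under 0.05 in edgeR there were 0 of 8, beside 1096 of all 13993 genes. The log2 fold changes lay between -0.31 for Mag and 0.11 for Pmp2. The intervals were -0.73 to 0.10 for Mag, -0.67 to 0.091 for Prx and -0.48 to 0.34 for Mbp. Prx had 8123, 5509, 5479, 6241 and 4949.5 CPM in C3 c-JunP0Cre and Cnp had 2053, 1269, 1251, 1475 and 1240.1 CPM. Ncmap had 1033, 703, 656, 756 and 604 CPM and Pmp2 had 3.71, 2.92, 1.65, 1.30 and 0.868 CPM. All 8 genes overlapped between C3 c-JunP0Cre and C3. Mag was lower at 5 of 5 ages, at 648, 423, 405, 431 and 342 CPM in C3 c-JunP0Cre, with an adjusted p of 0.753. Libraries of the same age correlated above 0 in this comparison, in their deviations from the group mean. At 5 and 7 weeks, though, the C3 c-JunP0Cre library correlated more with a C3 library of another age. With age as a block the count over all genes rose from 77 to 273 with 0 of the 8 genes among them. The lowest adjusted p of the 8 was then 0.124, for Mag. In the same libraries 0 of 18 other myelin sheath genes, 0 of 10 regulators and 0 of 16 genes of the dystroglycan complex were called.

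Against WT-C3, C3 c-JunP0Cre was lower for Mal and Drp2, 2 of the 8 genes, where 11.3% of all genes were lower, and was higher for 0 of 8, where 10.3% were higher. Mal had 2422, 1681, 1582, 1539 and 1286 CPM and a log2 fold change of -0.71 ± 0.18 (SE) (adjusted p = 0.0154). Drp2 had 1834, 2335, 2255, 2199 and 1697 CPM and a log2 fold change of -0.50 ± 0.13 (SE) (adjusted p = 0.0149). Drp2 did not overlap with WT-C3, as 16.3% of all genes did not, whereas the 3-week library of C3 c-JunP0Cre lay inside the range of WT-C3 for Mal. Mbp, at 19191, 12601, 11861, 12791 and 11042 CPM, had -0.45 ± 0.20 (SE) and missed the threshold (adjusted p = 0.126). It passed without the 3-week library of C3 c-JunP0Cre, at -0.61 (adjusted p = 0.0161), with DESeq2, at -0.45 (adjusted p = 0.0236), and with age as a block, at -0.46 (adjusted p = 0.0157). Mag had 0.21 ± 0.18 (SE) (adjusted p = 0.447) and Ncmap 0.37 ± 0.15 (SE) (adjusted p = 0.103), both with higher values at 5 of 5 ages, and Ncmap passed with age as a block, at 0.36 (adjusted p = 0.0147), and with scaling by library size alone, at 0.45 (adjusted p = 0.0185). C3 and C3 c-JunP0Cre share the WT-C3 libraries, so their 2 comparisons with WT-C3 are not independent.

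The 2 control strains were compared to see how far the genes differ without the transgene. Between WT-C22 and WT-C3, edgeR called 0 of the 8 genes, where 21.7% of all genes were called. DESeq2 also called 0 of 8, and 3484 of all 13993 genes. At an unadjusted p under 0.05 in edgeR there was 1 of the 8, beside 4792 of all 13993 genes. Ncmap was lower in WT-C22 at 5 of 5 ages, with a log2 fold change of -0.42 ± 0.18 (SE) (adjusted p = 0.124), and it passed without the 3-week library of WT-C22, at -0.54 (adjusted p = 0.0441), and with age as a block, at -0.45 (adjusted p = 0.00608). Pmp2 had -1.19 ± 0.60 (SE) (adjusted p = 0.190) and also passed with age as a block, at -1.18 (adjusted p = 0.00808). For Mbp the difference was 0.0017 ± 0.18 (SE), with an interval of -0.42 to 0.43, and for Drp2 it was -0.14 ± 0.14 (SE), with an interval of -0.46 to 0.18.

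Age was examined with a natural spline of 3 degrees of freedom and with a linear slope in a fit of all 25 libraries over 15298 genes. The spline called 4 of the 8 genes in WT-C22 (Mal, Ncmap, Mag and Pmp2), where 2.86% of all genes were called. It called Mag in C3 c-JunP0Cre, where 3.38% were, and Drp2 in C22, where 0.752% were. It called 0 of 8 in WT-C3 (0.693% of all genes) and 0 of 8 in C3 (2.27%). At an unadjusted p under 0.05 the spline had 6 of 8 in WT-C3, 4 in C3, 8 in C3 c-JunP0Cre, 7 in WT-C22 and 4 in C22. The share over all genes was not determined for these counts, nor for the signs of slopes that follow. Of 40 slopes, 39 were below 0 and that of Drp2 in C22 was above it, and 6 of the 40 changed sign when 1 library was left out (Prx in C3, Drp2 in WT-C3, C3 and C3 c-JunP0Cre, Cnp in C3 c-JunP0Cre and Pmp2 in C22). They passed the test for 4 genes in WT-C22 (Mal, Ncmap, Pmp2 and Mbp), where 3.88% of all genes had a falling slope. Pmp2 had only 10 to 52 counts per library in WT-C22. A falling slope was also called for Pmp2 in WT-C3 (1.56% of all genes), Mal in C3 (2.44%), and Mal and Pmp2 in C3 c-JunP0Cre (2.69%).

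In WT-C22 the slope was -0.12 ± 0.020 (SE) log2 units per week for Mal (adjusted p = 0.00110), -0.12 ± 0.022 (SE) log2 units per week for Ncmap (adjusted p = 0.00295) and -0.094 ± 0.023 (SE) log2 units per week for Mbp (adjusted p = 0.0145). From 3 to 12 weeks Mal fell 2.19-fold and Mbp 1.87-fold in that group. Over the same ages the ratio of the 3-week to the 12-week library in C22 was 1.02 for Mal, 1.02 for Mbp and 0.982 for Ncmap. In C22 the slopes of Mal and Mbp were -0.025 ± 0.020 (SE) log2 units per week and -0.022 ± 0.023 (SE) log2 units per week, neither past the threshold (adjusted p = 0.608 and 0.707). In WT-C3 Mal had -0.073 ± 0.020 (SE) log2 units per week (adjusted p = 0.0506) and in C3 -0.075 ± 0.020 (SE) log2 units per week (adjusted p = 0.0328). Each call on a slope in WT-C22 except that of Mal was lost without the 3-week library, where the adjusted p became 0.0584 for Ncmap, 0.0666 for Pmp2 and 0.251 for Mbp. Without the 12-week library it became 0.0949 for Mal, 0.155 for Ncmap and 0.174 for Mbp. The slope of Mal in C3 lost its call without the library of 3 weeks (adjusted p = 0.241), 5 weeks (0.0563) or 12 weeks (0.299). Those of Mal and Pmp2 in C3 c-JunP0Cre lost theirs without the library of 3 weeks (0.315 and 0.0934) or 12 weeks (0.135 and 0.147). That of Pmp2 in WT-C3 was lost without 3 weeks (0.381) or 12 weeks (0.179).

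**Figure D4:**
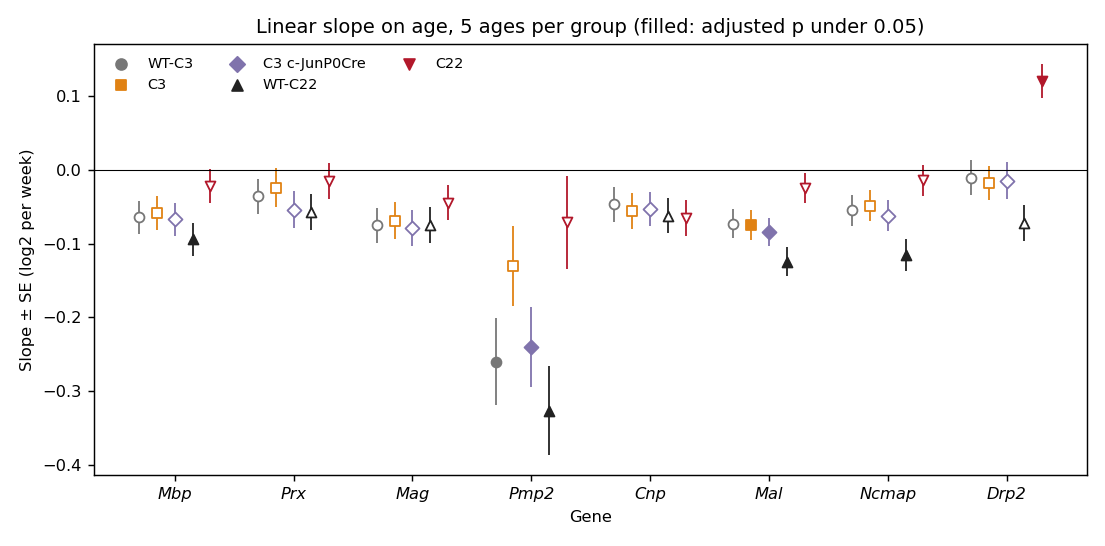
Linear slope on age with its SE (log2 units per week) for each gene in the 5 groups, 5 ages per group, with filled symbols for an adjusted p under 0.05. Drp2 in C22 has the only slope above 0, at 0.12, and the slopes of Pmp2 reach -0.33 in WT-C22.

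The slope of Drp2 in C22 was rising, at 0.12 ± 0.023 (SE) log2 units per week (adjusted p = 0.0184), where 0.477% of all genes had a rising slope, and in WT-C22 its slope was -0.072 ± 0.024 (SE) log2 units per week (adjusted p = 0.0727). The log2 ratio of C22 to WT-C22 was, in order of age, -3.32, -2.77, -2.57, -2.44 and -1.42. It rose at each step, from a model library and a control library per age. The linear slope differed between C22 and WT-C22 by 0.19 ± 0.034 (SE) per week (adjusted p = 0.00962), where 0.464% of all genes had a different slope. With the spline the time course of Drp2 did not pass the test (adjusted p = 0.0670), nor did that of the other 7 genes, and 0.0523% of all genes were called. A spline with 2 degrees of freedom gave an adjusted p of 0.0217. The slope in C22 lost its call without the 3-week library (adjusted p = 0.483) or the 12-week library (0.143), at values of 0.12 and 0.11 per week. For Mbp the log2 ratios were -1.57, -1.003, -0.99, -1.29 and -0.68 and for Mal -1.56, -1.10, -0.88, -1.20 and -0.46, both least far from 0 at 12 weeks, and neither gene's slope differed from WT-C22 past the threshold (adjusted p = 0.337 and 0.121). In C3 the log2 ratios of Drp2 to WT-C3 were -0.25, -0.63, -0.49, -0.50 and -0.43. For 0 of the 8 genes did the time course differ between C3 and WT-C3 (0.0261% of all genes) or between C3 c-JunP0Cre and C3 (0.0588%).

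**Figure D5:**
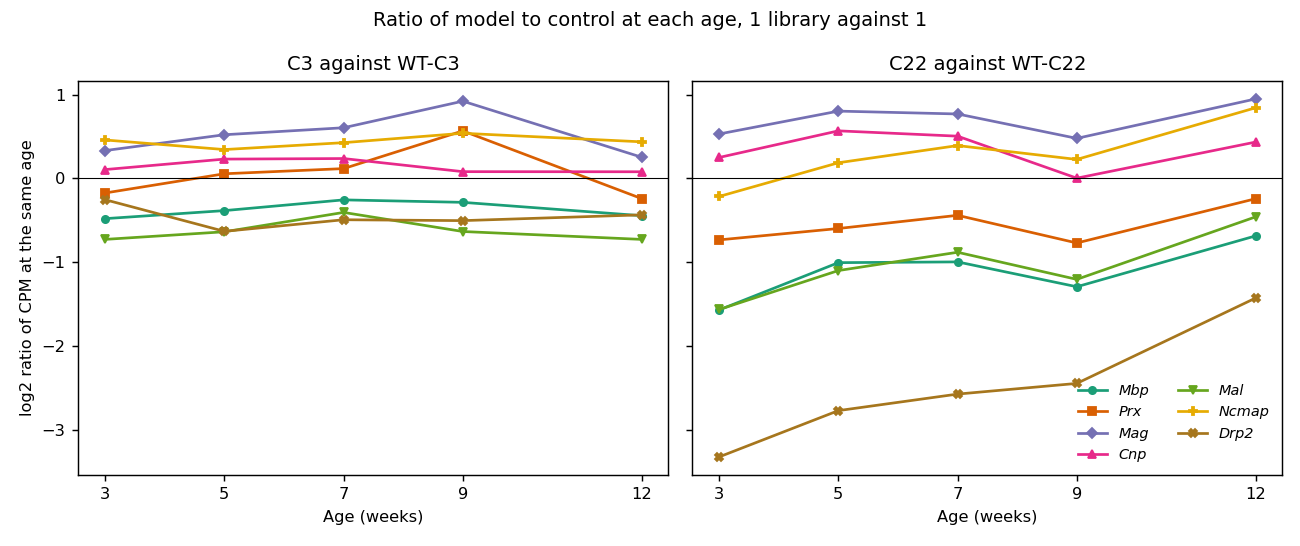
log2 ratio of model to control at the same age, 1 library against 1, for 7 genes (Pmp2, at under 5 CPM, is not drawn) in C3 (left) and C22 (right). Drp2 in C22 climbs from -3.32 at 3 weeks to -1.42 at 12 weeks, while in C3 it stays between -0.63 and -0.25.

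Among the profiles most like the mean profile of the 8 genes over the 25 libraries, by the root mean square difference of centred log2 CPM among 13985 other genes, were those of D430019H16Rik (0.153), Kank4 (0.162), Pdgfa (0.183) and Hepacam (0.186). Over all other genes the median difference was 0.481. Among the 8, Prx was nearest to their mean, at 0.172, followed by Mbp at 0.247. Drp2, at 0.767, was farthest, after Pmp2 at 0.656 and Mag at 0.492.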

How the data were processed

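RNA-seq was made from pooled sciatic nerves (poly(A) enriched, directional paired-end libraries). Per the study's methods, the authors clipped adapters with cutadapt 2.10, aligned with STAR 2.7.5a to mouse GRCm39 with the human PMP22 locus added, removed duplicates with UMI-tools 1.1.1 and deposited raw counts per gene from HTSeq 0.12.4 (Ensembl annotation, read quality by FastQC 0.11.9). The strand setting and overlap mode are not given in the sources used here.

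Ensembl identifiers were named through GENCODE M39, and the 5 summary lines were left out. Groups were compared with edgeR 4.0.16 (quasi-likelihood test, TMM, R 4.3.3) over the 13993 genes that passed 1 log2 CPM in 7 or more libraries, with Benjamini-Hochberg adjustment and a threshold of 0.05. Age was fitted over the 15298 genes kept by filterByExpr (splines 4.3.3). The SE is the log2 fold change over the root of F. Intervals are 95%, from this SE and t on the residual degrees of freedom of the fit. The quasi-likelihood test uses more degrees of freedom than these, so an interval can hold 0 where the unadjusted p is under 0.05, as for Cnp in C22. The alternatives tried were scaling by median ratios or by library size alone, DESeq2 1.42.0, the likelihood ratio test, other filters, 1 fit of all libraries, age as a block and leaving out each library. Leaving out the libraries with over 1000 CPM of muscle markers was chosen after seeing the data. Scripts were tested on simulated data.

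The 8 genes and all lists were chosen with earlier results of these data known. Genes of a list are named by level (up to 4) or because their call differs from the rest of the list. Some genes that this rule would name are not reported here, but they stand in the counts and medians of their lists. Profiles are compared on log2 CPM centred on each gene's mean. Libraries of the same age deviated together between C3 c-JunP0Cre and C3 (correlations of deviations from 0.123 to 0.615 over the 5 ages), so the blocked value stands beside that result, and beside Mbp, Cnp, Ncmap and Pmp2 where it changed a call. Ages are not separate samples of 1 condition, so p-values measure the spread over ages.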

Additional observations from a re-analysis of the deposited data

Results flagged for a closer look

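In 3 of the 40 sets of 5 libraries (8 genes in 5 groups), the highest library stood far from the rest, each time that of 3 weeks. The 5 libraries of a set differ in age, and genes share libraries, so no rate by chance can be set beside this count. Mbp reached 19190 CPM and Cnp 2053 CPM in C3 c-JunP0Cre at 3 weeks, with the next libraries at 12791 and 1475 CPM. Pmp2 reached 0.9867 CPM in C22 at 3 weeks.

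The change differed between C22 and C3 for Drp2, by -2.036 on the log2 scale, for Mbp, by -0.7809, and for Prx, by -0.6582, all tested as the difference itself. Strain and copy number cannot be told apart in these differences. The linear slope of Drp2 on age differed between C22 and WT-C22 with an adjusted p of 0.009617 in edgeR.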

How the results depend on the processing

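Of the values of single genes, 406 kept their direction and their side of the threshold under another setting, 11 passed it anew, 6 lost it and 7 changed sign. When 1 library was left out, 677 kept both, 8 passed anew, 44 lost the call and 31 changed sign. No value that changed sign was called in either fit. Without the libraries rich in muscle RNA, 0 of the 8 genes were called lower in C3, where 1152 of 13993 genes were. Over all genes the calls then fell from 1687 to 1048 for the difference between the models and from 77 to 46 between C3 c-JunP0Cre and C3. Scaled by library size alone, 3 of the 8 genes were called higher in C22 (Mag, Cnp and Ncmap), where 39.2% of all genes then were, and 1 in C3 c-JunP0Cre against WT-C3 (Ncmap), where 16.7% were. That scaling moved the median log2 fold change of all genes in C22 from 0.0046 to 0.17, relative to which Ncmap, at 0.42, and Cnp, at 0.53, stayed above. It also moved the share of higher calls from 52.1% to 71.4% in C3, from 51.7% to 76.0% in C22, from 39.4% to 63.1% for their difference and from 47.7% to 66.6% for C3 c-JunP0Cre against WT-C3. With no filter on low counts, 1 of the 8 genes was called lower for the difference (Drp2), where 752 of 34082 genes were. Between C3 c-JunP0Cre and C3, other settings called 193 (likelihood ratio test), 134 (no filter), 139 (1 fit of all libraries) and 250 genes (DESeq2), and 43 to 98 without 1 library, against 77. The age effect was called for 0 genes in C3 c-JunP0Cre with 2 degrees of freedom, 3 with the log2 CPM filter and 0 in a fit of model and control alone, for 2 and 2 in WT-C22 and for 0 and 0 in C22 under the last 2 of these settings. The time course of C22 differed from WT-C22 for 1 gene with 2 degrees of freedom and for 1 with a linear slope, Drp2 both times. The cause of these changes was not tested.

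With age as a replicate block, 2 of the 8 genes were called higher in C22 (Mag and Cnp), where 21.9% of all genes were. In C3 c-JunP0Cre against WT-C3, 1 was higher (Ncmap), where 10.9% of all genes were. In that comparison 3 were lower (Mal, Drp2 and Mbp), where 1828 of 13993 genes were. In WT-C22 against WT-C3, 2 were lower (Ncmap and Pmp2), where 1946 of 13993 genes were. The block also called Mbp lower in C3, with an adjusted p of 0.00648 in edgeR. Libraries of the same age also had correlations above 0 at each age in WT-C22 against WT-C3 (0.046 to 0.653). The same held in C3 c-JunP0Cre against WT-C3 (0.019 to 0.351). There, however, each C3 c-JunP0Cre library correlated more with a WT-C3 library of another age than with that of its own. In the comparisons of the models with their controls not every pair deviated together, with -0.224 in C3 at 5 weeks and -0.15 in C22 at 12 weeks.

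Leaving out 1 library gave 0 to 2 genes higher and 2 to 2 lower in C3, 1 to 2 higher and 4 to 4 lower in C22, and 0 to 0 higher and 1 to 3 lower for their difference. It gave 0 to 0 for C3 c-JunP0Cre against C3, 0 to 0 higher and 2 to 3 lower against WT-C3, and 0 to 1 lower for WT-C22 against WT-C3. Called slopes ranged from 0 to 1 in WT-C3, 0 to 2 in C3, 0 to 5 in C3 c-JunP0Cre, 1 to 4 in WT-C22 and 0 to 1 in C22.

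The 7 log2 fold changes that changed sign were, without the libraries rich in muscle RNA, those of Pmp2 in C3 (0.32), in C3 c-JunP0Cre against C3 (-0.28) and against WT-C3 (0.036), and of Mag for the difference between the models (-0.099). With library size alone they were Cnp in C3 c-JunP0Cre against WT-C3 (0.021) and Mbp in WT-C22 against WT-C3 (-0.012), and with age as a replicate block the last of these again (-0.017). With 1 library left out, Prx in C3 ran from -0.013 to 0.16. Pmp2 ran from -0.51 to 0.17 in C3, -0.79 to 0.13 for the difference, -0.16 to 0.40 in C3 c-JunP0Cre against C3 and -0.40 to 0.28 against WT-C3. In C3 c-JunP0Cre, Ncmap ran from -0.20 to 0.0083 and Drp2 from -0.088 to 0.024 against C3, and Cnp from -0.21 to 0.035 against WT-C3. In WT-C22 against WT-C3, Mbp ran from -0.15 to 0.090, Prx from -0.12 to 0.025 and Mal from -0.23 to 0.041. Linear slopes, in log2 per week, ran for Drp2 from -0.033 to 0.0032 in WT-C3, -0.069 to 0.0013 in C3 and -0.064 to 0.039 in C3 c-JunP0Cre, for Prx from -0.050 to 0.037 in C3, for Cnp from -0.070 to 0.0034 in C3 c-JunP0Cre and for Pmp2 from -0.15 to 0.027 in C22.

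With 1 pool per group and age, spread between animals and change with age cannot be told apart. Depth limits Pmp2, which had 7 to 101 counts per library, and the C3 library of 9 weeks.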

Other observations

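Genes of other states of the Schwann cell stood beside the 8 genes in the same libraries. Of 6 genes of nonmyelinating and immature Schwann cells, 5 were higher in C3 (Ngfr, Ncam1, L1cam, Gfap and Sox2), and in C22 3 were higher (Ngfr, L1cam and Sox2) and 2 lower (Scn7a and Gfap). Over all genes, 12.5% were higher and 11.4% lower in C3, and 21.9% and 20.5% in C22. Sox2, which encodes a factor of immature Schwann cells, had log2 fold changes of 1.20 (adjusted p = 3.80e-05) in C3 and 1.54 (adjusted p = 1.04e-05) in C22 in edgeR. Gfap, a filament gene, had 2.26 (adjusted p = 0.000101) in C3 and -0.60 (adjusted p = 0.0226) in C22, and the change differed between the models, at -2.88 (adjusted p = 3.22e-06). Of 6 repair Schwann cell genes, 3 passed the filter (Jun, Runx2 and Shh), and Gdnf, Artn and Olig1 did not. Jun and Runx2 were higher in both models, at 0.90 (adjusted p = 0.000189) and 2.34 (adjusted p = 0.000234) in C3 and at 1.41 (adjusted p = 4.49e-05) and 1.61 (adjusted p = 1.60e-05) in C22. Shh was higher in C3, at 2.48 (adjusted p = 0.00480), and was lower in C22, where its highest library had 0 CPM against 3.60 in WT-C22.

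Of the markers of cells other than Schwann cells, those of perineurial, endothelial and pericyte cells and of oligodendrocytes are given above. Of 8 macrophage genes, 0 were called in C3 in edgeR and 1 was higher and 1 lower in C22. Of 6 fibroblast genes, 0 were called in C3 and 1 was lower in C22, and of 5 mast cell genes, 0 were called in C3 and 1 was higher in C22. Mast cell genes differed between the control strains, where 5 of 5 were higher in WT-C22 than in WT-C3, beside 9.99% of all genes. Of 5 adipocyte, 4 blood and 6 skeletal muscle genes, 0 were called in either model, and 0 of 3 T cell genes passed the filter.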
